A study of Mus musculus with 4 samples.

Results

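Genes of glutamate receptors and of the postsynaptic scaffold were followed through the embryonic Atoh1 lineage of the mouse cerebellum. They are 33 of the 32285 genes in the count matrices: 4 AMPA, 5 kainate, 7 NMDA and 7 metabotropic receptor genes, 1 delta receptor gene and 9 scaffold genes, taken from a fixed list by symbol. The data are droplet single-cell RNA sequencing of cells sorted for tdTomato (tdT) from cerebella of E14.5 embryos. The 2 control libraries carried Atoh1-Cre/+ and R26LSL-tdT/+. The 2 En1/2 CKO (conditional knockout) libraries carried the same 2 alleles on an En1lox/lox and En2lox/lox background. All 4 libraries therefore carried the Atoh1-Cre driver, which acts in the rhombic lip lineage, and the Cre-dependent tdTomato reporter, and En1 and En2 were floxed only in the CKO. Animals were pooled for each library, so each library is 1 sample, and p-values measure only the spread between these libraries, which may be technical.

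Excitatory synapses pass their signal through ligand-gated channels and G protein-coupled receptors for glutamate. AMPA receptors (Gria genes) carry the fast current, and the subunit GluA2, encoded by Gria2, sets whether the channel passes calcium. Kainate receptors (Grik genes) act on both sides of the synapse, NMDA receptors combine the obligatory GluN1 (Grin1) with GluN2 or GluN3 subunits, and metabotropic receptors (Grm genes) signal more slowly. Scaffold proteins such as PSD-95 (Dlg4), GKAP (Dlgap1), Homer and Shank hold the receptors in the postsynaptic density. At this embryonic age granule cell precursors are dividing beneath the pial surface, excitatory cerebellar nuclei neurons have left the rhombic lip, and most synapses of these cells have not yet formed.

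A cell was kept if it had 500 or more genes, 1000 or more unique molecular identifiers (UMIs) and no more than 10% mitochondrial UMIs. This left 2911 and 3931 control and 2007 and 3697 CKO cells, 12546 in all. Values below are in the order control 1, control 2, CKO 1, CKO 2 unless stated. The kept cells were grouped by marker UMIs: 6948 cells with more Pax6 than Meis2 (Pax6 > Meis2), 3870 with more Meis2 than Pax6 (Meis2 > Pax6), 759 with an Olig2 UMI and 1067 with a Tbr1 or Lmx1a UMI. The first 2 sets share no cell, and the other 2 overlap with them. The Olig2 cells numbered 112, 366, 138 and 143. Of these, 29, 266, 65 and 25 were also Meis2 > Pax6 and 66, 42, 62 and 111 Pax6 > Meis2 cells. The Tbr1 or Lmx1a cells numbered 144, 511, 264 and 148. Of these, 49, 306, 95 and 28 were also Meis2 > Pax6 and 74, 116, 145 and 109 Pax6 > Meis2 cells. Pax6 is known from the granule lineage, Meis2 from cerebellar nuclei neurons, Tbr1 from medial nuclei neurons and unipolar brush cells, and Lmx1a from the latter and the rhombic lip. In the Pax6 > Meis2 cells, 10 granule lineage markers summed to 3206 to 3604 counts per 1000000 UMIs (CPM) and 8 nuclei markers to 119.6 to 499 CPM. In the Meis2 > Pax6 cells, the same granule markers summed to 1999 to 3211 CPM and the nuclei markers to 2319 to 3064 CPM, so granule markers were still abundant there. The granule list holds Pax6, the nuclei list Meis2 and Tbr1, and the unipolar brush cell list used below Tbr1 and Lmx1a. These genes also formed the sets, so the sums are partly fixed by the grouping and do not test it. Of 4 oligodendrocyte precursor markers, 3 had UMIs in the Olig2 cells of at least 1 library and Sox10 was at 0 in every library. The 4 markers summed to 7.32 to 24.8 CPM there.

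Libraries differed in depth and quality along with genotype. Total UMIs were 21351661 and 14998150 in control and 27138010 and 33709450 in CKO libraries, and the median UMIs per kept cell 2734, 2122, 5352 and 5544. The median share of Malat1, a nuclear RNA, was 4.13, 7.91, 2.05 and 3.25% of a cell's UMIs. Haemoglobin and other erythroid markers reached 3520 CPM in the Meis2 > Pax6 cells and 9639 CPM in the Olig2 cells of control 2. Of the barcodes, 18 occurred in more than 1 library. The control 2 library also stood apart in its makeup, with 961 Pax6 > Meis2 and 2322 Meis2 > Pax6 cells, against 1801 and 603, 1208 and 573, and 2978 and 372 in the other libraries.

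The targeted genes came first. En2 stood at 105, 129, 23.4 and 17.6 CPM in Pax6 > Meis2 cells and at 246, 193, 48.7 and 43.8 CPM in Meis2 > Pax6 cells. Both CKO libraries lay well under both controls. In edgeR's quasi-likelihood test with Benjamini-Hochberg adjustment over all genes, En2 was lower in the CKO in Pax6 > Meis2 cells (log2 fold change -2.51, adjusted p = 0.0115), Meis2 > Pax6 cells (-2.24, adjusted p = 0.0177), Olig2 cells (-2.78, adjusted p = 0.0348) and Tbr1 or Lmx1a cells (-2.67, adjusted p = 0.0249). Over all kept cells En2 had a log2 fold change of -2.51 and did not pass (adjusted p = 0.396). En1 transcripts were not depleted to a similar degree, at 164, 227, 98.4 and 219 CPM in Pax6 > Meis2 cells, and En1 passed in no set. Whether the 3′ tag of En1 lies in the deleted part is not given in the sources used here, so its count does not check the deletion.

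Upstream windows of Gria2, Gria4 and Grik2 are shown because these genes differ in where they were expressed: Gria2 was the most abundant member in every set, Gria4 was higher in Meis2 > Pax6 cells and Grik2 in Pax6 > Meis2 cells. Each window is the 250 bases before the transcription start (RefSeq, build GRCm38.p6, minus strand, printed 5′ to 3′), with matches to the E-box letters CANNTG, the kind of site bHLH factors such as Atoh1 bind, in capitals.
Gria2 chr3:80802836-80803085: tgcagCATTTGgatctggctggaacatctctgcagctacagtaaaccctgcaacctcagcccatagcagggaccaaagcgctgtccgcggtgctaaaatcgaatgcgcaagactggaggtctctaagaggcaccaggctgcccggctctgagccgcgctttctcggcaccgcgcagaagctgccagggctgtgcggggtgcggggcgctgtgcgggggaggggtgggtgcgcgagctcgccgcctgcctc
Gria4 chr9:4796235-4796484: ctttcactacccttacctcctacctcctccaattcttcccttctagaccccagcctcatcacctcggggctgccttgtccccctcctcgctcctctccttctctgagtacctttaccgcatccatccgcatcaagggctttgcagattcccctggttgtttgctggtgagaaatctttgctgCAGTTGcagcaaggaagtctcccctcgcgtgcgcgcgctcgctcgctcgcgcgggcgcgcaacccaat
Grik2 chr10:49788755-49789004: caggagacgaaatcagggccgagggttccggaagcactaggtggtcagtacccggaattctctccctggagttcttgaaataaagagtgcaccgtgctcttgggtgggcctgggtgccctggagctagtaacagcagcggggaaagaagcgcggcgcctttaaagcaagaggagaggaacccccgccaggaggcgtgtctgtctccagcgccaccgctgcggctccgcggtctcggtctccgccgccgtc
Gria2 and Gria4 had 1 match each and Grik2 none. The homeodomain letters TAATTA were absent from the 3 windows. All 3 windows were rich in CpG, with 19, 16 and 20 CpG dinucleotides. The median was 6 over all windows and 9 over the windows of the listed genes. Of the 33 genes 22 had a window, 34 windows in all, and CANNTG occurred on either strand in 50% of these 34 and in 66.2% of all 32851. TAATTA occurred in none of the 34 and in 4.84% of all windows. Both motifs read the same on either strand, and a match is a description of letters, not of binding.

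Levels are given as CPM of UMIs summed over the cells of a set in a library and scaled with TMM factors within each comparison. Counting is by 3′ tags, 1 per molecule, so gene length does not enter when genes are compared. A sum gives deep cells more weight than shallow ones. Over all kept cells 32 of the 33 genes had a UMI in every library. Grm6, a receptor of retinal bipolar cells, had 0 UMIs in all 4, which allows up to 0.202, 0.283, 0.140 and 0.0941 CPM (3 UMIs of each library's kept total, counting error only). Grin3b, Grm4, Grm7 and Grm8 were rare, with at most 16 UMIs in any set and library, and were not tested between sets.

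Between Meis2 > Pax6 and Pax6 > Meis2 cells most receptor and scaffold genes differed. Both sets of a library were compared within that library, with the library as a block. Of 24 genes tested, 16 were higher and 3 lower in Meis2 > Pax6 cells at an adjusted p under 0.05, against 25.3% higher and 27% lower of all genes tested. The median log2 difference was 1.08, against -0.01 over all genes. The sets also differed in their share of cycling cells, those with at least 2 UMIs of 6 cycle genes. These made up 35.9, 32.2, 53.6 and 42.5% of Pax6 > Meis2 cells but 13.8, 9.91, 15.5 and 15.6% of Meis2 > Pax6 cells. With cycling cells left out 19 genes passed, 17 of them among the original 19. Gria2 and Grik1 were gained, and Grid1 and Shank3 were lost: their log2 differences were 0.65 (adjusted p = 0.0848) and 0.16 (adjusted p = 0.602), and both were also lost with DESeq2, without control 1 and without CKO 2. Among intact cells (at least 4000 UMIs, at most 5% mitochondrial) 18 genes had enough counts to be tested and 14 of the original 19 passed. There Shank3 did not pass, and Gria1, Grin1, Grin3a and Grid1 were not among the genes tested.

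**Figure D1:**
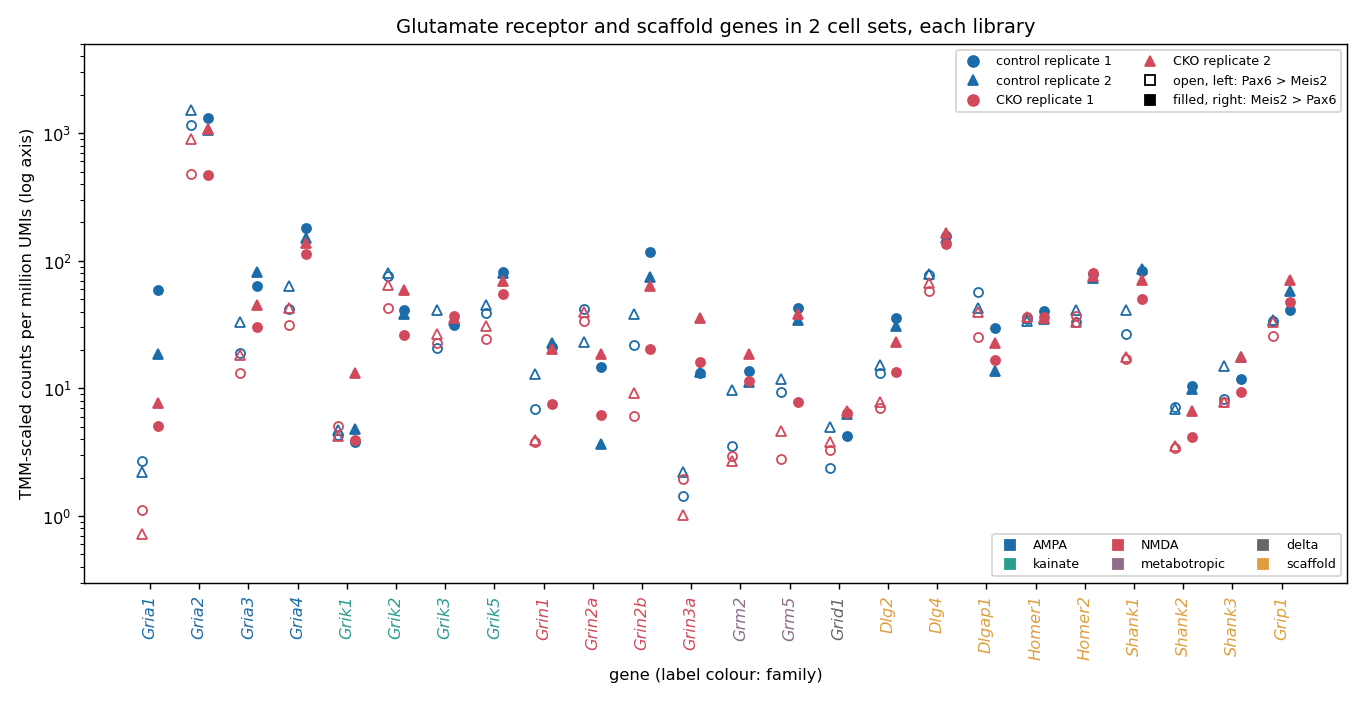
TMM-scaled CPM (log axis) of the 24 genes tested between the sets, in Pax6 > Meis2 cells (open) and Meis2 > Pax6 cells (filled) of each library. Gria2 sits near the top in both sets, Gria1, Gria3 and Gria4 are higher in every library's Meis2 > Pax6 cells, and Grin2a is lower there.

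Among AMPA receptor genes, Gria2 did not differ detectably between the sets over all their cells, though it passed with cycling cells left out. The other 3 were higher in Meis2 > Pax6 cells. Gria2 (chr3:80681450-80802835, GRCm38) stood at 1322, 1068, 471 and 1079 CPM in Meis2 > Pax6 and 1156, 1507, 480.5 and 901 CPM in Pax6 > Meis2 cells (log2 difference -0.02, SE 0.12, adjusted p = 0.916). In both sets CKO 1 was the lowest library. Gria1 (chr11:57011387-57330244), which encodes the GluA1 subunit, stood at 58.9, 18.6, 5.07 and 7.70 CPM in Meis2 > Pax6 and 2.70, 2.20, 1.11 and 0.727 CPM in Pax6 > Meis2 cells (log2 difference 3.53, SE 0.33, adjusted p = 2.77e-06). The 4 values of each set did not overlap, although Gria1 in the first set ranged widely among libraries, with control 1 the highest. Gria4 (chr9:4417896-4796234, GluA4) stood at 182, 149.5, 113 and 139 CPM against 41.9, 63.7, 31.1 and 42.3 CPM (log2 difference 1.74, SE 0.12, adjusted p = 3.57e-07). Gria3 (chrX:41400854-41678601, GluA3) stood at 63.6, 81.9, 30.2 and 45.1 CPM against 18.8, 33.3, 13.1 and 18.2 CPM (log2 difference 1.39, SE 0.11, adjusted p = 1.02e-06). Gria4 was fully separated between the sets, and Gria3 was higher in the Meis2 > Pax6 cells of each library while its values overlapped across libraries.

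Gria2 made up most AMPA subunit UMIs everywhere, and less so in the Meis2 > Pax6 cells. Its share of Gria1 to Gria4 UMIs was 94.8, 93.8, 91.4 and 93.6% in Pax6 > Meis2 cells and 81.3, 81.0, 76.0 and 84.9% in Meis2 > Pax6 cells. In all 4 libraries the share was lower in Meis2 > Pax6 cells, by 13.5, 12.8, 15.4 and 8.69 percentage points. In Olig2 cells it was 90.3, 85.1, 81.7 and 86.9%, and in Tbr1 or Lmx1a cells 90.2, 83.7, 85.7 and 90.6%. A UMI of Gria2 was found in 90.2, 85.1, 90.5 and 93.0% of Pax6 > Meis2 cells. After thinning each cell to 2000 UMIs these shares were 80.7, 81.9, 57.1 and 68.5%, with 467, 385, 165 and 719 shallower cells left out. The median depth of these cells before thinning was 3238, 2339, 13722.5 and 9818.5 UMIs. Both unthinned CKO shares lay above both control shares, and both thinned CKO shares lay below them. Haemoglobin-rich cells, which should lack Gria2, gave 1 of 11 thinned cells in control 2 (9.09%, 95% Wilson interval 1.62 to 37.7%) and numbered 2, 3 and 0 in the other libraries, too few to measure free RNA closely.

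Kainate receptor genes split between the sets. Grik2 (chr10:49094833-49788766), which encodes the pore-forming GluK2, stood at 41.0, 38.2, 26.0 and 59.4 CPM in Meis2 > Pax6 and 75.8, 79.7, 42.4 and 64.9 CPM in Pax6 > Meis2 cells (log2 difference -0.70, SE 0.13, adjusted p = 0.000742). It was lower in the Meis2 > Pax6 cells of all 4 libraries, with a small gap in CKO 2. Grik5, which encodes the high-affinity subunit GluK5, ran the other way, at 81.5, 80.2, 55.3 and 69.3 CPM in Meis2 > Pax6 and 39.1, 44.9, 24.3 and 30.7 CPM in Pax6 > Meis2 cells (log2 difference 1.07, SE 0.09, adjusted p = 1.72e-06). The 2 sets did not overlap for Grik5. Grik3 (log2 difference 0.36 ± 0.15 SE) and Grik1 (0.37 ± 0.33 SE) did not pass, with adjusted p of 0.0569 and 0.377. Grik4 had too few UMIs to be tested between the sets. As a result Grik2 held 53.5, 46.6, 44.7 and 50.9% of kainate subunit UMIs in Pax6 > Meis2 cells and 25.4, 24.0, 21.0 and 32.7% in Meis2 > Pax6 cells.

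NMDA receptor genes showed opposite patterns for the 2 main GluN2 subunits. Grin2b (chr6:135713233-136173511), which encodes the GluN2B subunit known from embryonic neurons, stood at 117, 75.1, 20.3 and 63.2 CPM in Meis2 > Pax6 and 22.1, 38.0, 6.08 and 9.12 CPM in Pax6 > Meis2 cells (log2 difference 2.0, SE 0.23, adjusted p = 1.38e-05). Grin2a (chr16:9567898-9995560), which encodes the GluN2A subunit best known from mature synapses, stood at 14.6, 3.65, 6.22 and 18.7 CPM in Meis2 > Pax6 and 41.8, 23.2, 33.5 and 39.6 CPM in Pax6 > Meis2 cells (log2 difference -1.88, SE 0.21, adjusted p = 1.46e-05). Every Grin2a value in Pax6 > Meis2 cells lay above every value in Meis2 > Pax6 cells, and control 2 was the lowest library in each set. For Grin2b each library was higher in its Meis2 > Pax6 cells, while CKO 1 there lay below both controls' Pax6 > Meis2 values. Grin3a (chr4:49661611-49845744), which encodes GluN3A, a subunit that lowers calcium flow through the receptor, stood at 13.2, 13.5, 16.1 and 35.7 CPM in Meis2 > Pax6 and 1.44, 2.20, 1.96 and 1.02 CPM in Pax6 > Meis2 cells (log2 difference 3.71, SE 0.35, adjusted p = 3.34e-06). It had the largest difference of the 24 genes, with no overlap. Grin1 stood at 21.2, 22.6, 7.60 and 20.3 against 6.93, 12.9, 3.79 and 3.93 CPM (log2 difference 1.45, SE 0.24, adjusted p = 0.000294). Grin2c and Grin2d were under the count filter in this comparison.

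The GluN2 composition can be read within a library. Of Grin2a to Grin2d UMIs, Grin2b held 32.7, 58.2, 14.8 and 18.0% in Pax6 > Meis2 cells and 82.9, 88.3, 69.8 and 75.7% in Meis2 > Pax6 cells. It was higher in Meis2 > Pax6 cells of every library, by 50.2, 30.1, 55.0 and 57.7 percentage points. In Olig2 cells the share was 45.1, 89.4, 29.4 and 18.3%, and in Tbr1 or Lmx1a cells 68.1, 88.0, 32.6 and 56.4%. The totals behind the latter 2 sets were 51 to 109 UMIs, so the counting interval was wide (for example 32.3 to 58.6% by Wilson for control 1 in Olig2 cells).

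**Figure D2:**
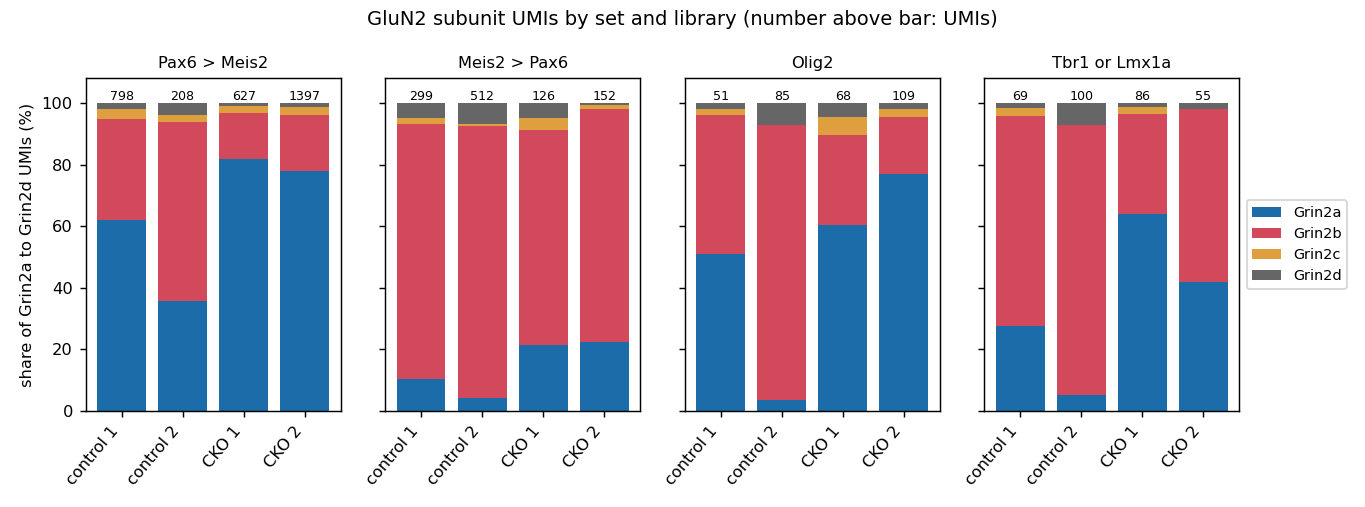
Share (%) of Grin2a, Grin2b, Grin2c and Grin2d among their summed UMIs in each set and library, with the UMI total above each bar. Grin2b holds 69.8 to 88.3% in Meis2 > Pax6 cells and 14.8 to 58.2% in Pax6 > Meis2 cells, and both CKO bars have a lower Grin2b share than both control bars in each set.

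The metabotropic and delta receptor genes that could be tested were higher in Meis2 > Pax6 cells. Grm5, a group I receptor coupled to calcium release, stood at 42.9, 34.6, 7.83 and 37.9 CPM in Meis2 > Pax6 and 9.38, 11.9, 2.81 and 4.65 CPM in Pax6 > Meis2 cells (log2 difference 2.14, SE 0.23, adjusted p = 9.03e-06). CKO 1 was far below the other libraries in Meis2 > Pax6 cells, so the sets overlapped across libraries. Grm2, a group II receptor, stood at 13.7, 11.1, 11.5 and 18.7 against 3.55, 9.72, 2.94 and 2.69 CPM (log2 difference 1.75, SE 0.34, adjusted p = 0.000816), with no overlap. Grid1, the gene of the delta receptor GluD1, which organises synapses through cerebellin proteins, stood at 4.24, 6.31, 6.45 and 6.60 against 2.37, 5.02, 3.27 and 3.78 CPM (log2 difference 0.75, SE 0.24, adjusted p = 0.0214). Grm3, also group II, was not tested between these sets.

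Of the 9 scaffold genes, 6 were higher and 1 lower in Meis2 > Pax6 cells. Dlg4 (chr11:70016942-70047522), the gene of PSD-95 and the most abundant scaffold gene in both sets, stood at 157, 152, 136 and 164 CPM in Meis2 > Pax6 and 77.1, 79.0, 58.1 and 67.4 CPM in Pax6 > Meis2 cells (log2 difference 1.12, SE 0.09, adjusted p = 8.27e-07). Shank1 (chr7:44310253-44360572), a master scaffold, stood at 82.9, 86.9, 50.2 and 70.4 against 26.9, 40.8, 16.9 and 17.7 CPM (log2 difference 1.57, SE 0.13, adjusted p = 9.15e-07). Homer2, which links group I metabotropic receptors to Shank proteins, stood at 78.2, 73.6, 80.6 and 75.3 against 33.1, 41.4, 36.9 and 33.3 CPM (log2 difference 1.10, SE 0.09, adjusted p = 1.48e-06). These 3 genes were separated in all libraries, and Homer2 varied little among libraries in either set. Dlgap1 (chr17:69969073-70821413), the gene of GKAP, was the exception, at 29.7, 13.6, 16.6 and 22.5 CPM in Meis2 > Pax6 and 57.1, 42.3, 25.3 and 39.4 CPM in Pax6 > Meis2 cells (log2 difference -1.0, SE 0.15, adjusted p = 0.000142). It was lower in the Meis2 > Pax6 cells of each library.

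The remaining scaffold genes had log2 differences between 0.05 (Homer1) and 1.23 (Dlg2). Dlg2, the gene of PSD-93, stood at 35.3, 30.6, 13.4 and 23.1 against 13.2, 15.4, 6.99 and 7.85 CPM (log2 difference 1.23 ± 0.15 SE), and its exons overlap those of Gm45159 on the same strand, so its counts are uncertain. Grip1, which binds AMPA receptor tails, stood at 41.5, 58.3, 47.7 and 70.4 against 33.9, 34.5, 25.9 and 33.2 CPM (0.77 ± 0.12 SE). Shank3 stood at 11.8, 17.6, 9.45 and 17.6 against 8.28, 15.1, 7.84 and 7.81 CPM (0.53 ± 0.19 SE). All 3 passed, with adjusted p of 3.05e-05, 0.000176 and 0.0356. Homer1 stood at 40.0, 35.1, 36.2 and 35.7 CPM in Meis2 > Pax6 and 34.9, 33.9, 36.4 and 36.1 CPM in Pax6 > Meis2 cells, a log2 difference of 0.05 ± 0.10 (SE) that did not pass. Shank2 (0.54 ± 0.22 SE) fell just short, with an adjusted p of 0.0517.

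**Figure D3:**
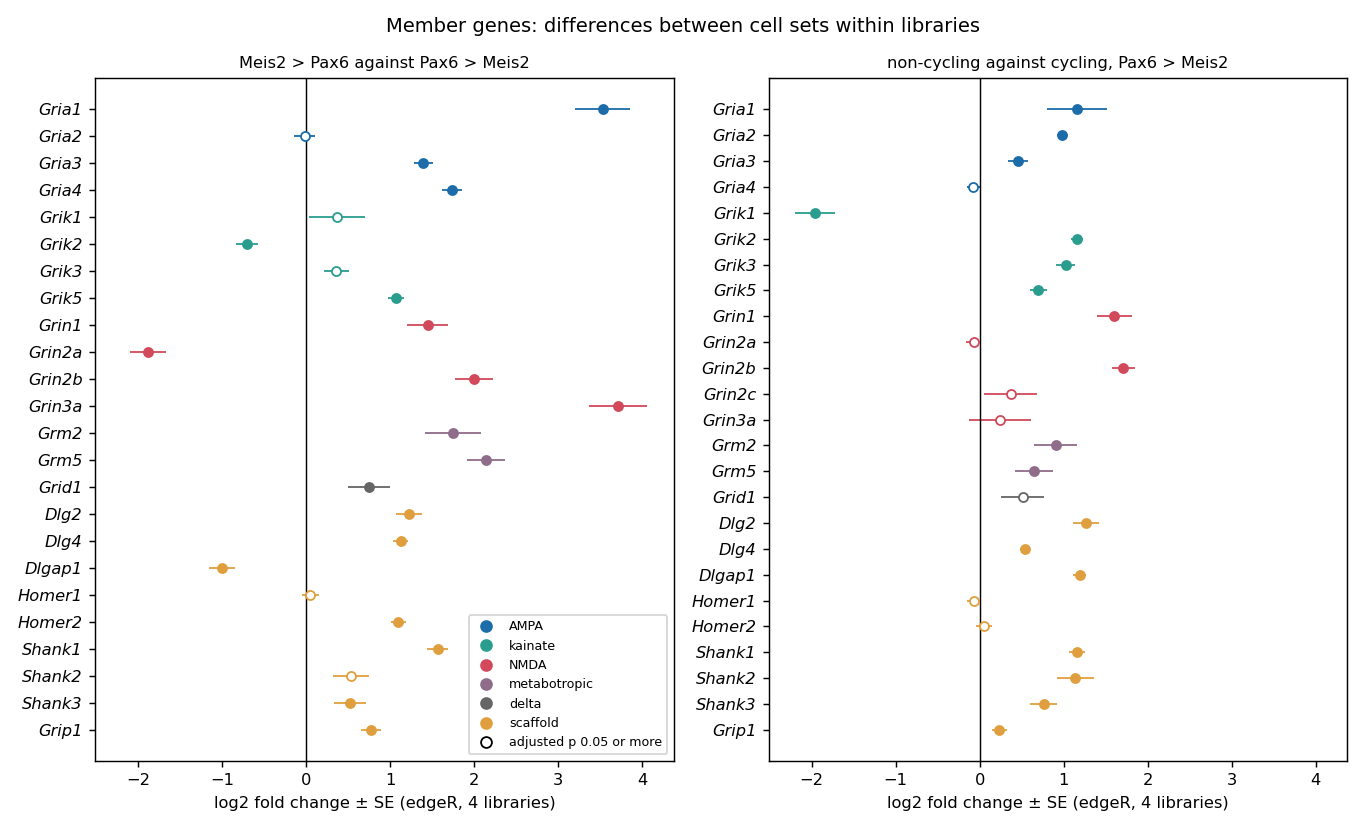
Log2 difference (± SE) of Meis2 > Pax6 against Pax6 > Meis2 cells for each gene tested, ordered within families. Grin3a and Gria1 have the largest differences, and Grik2, Grin2a and Dlgap1 are the 3 genes that passed in the lower direction.

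Related genes outside the list shifted the same way with smaller medians. Of 22 auxiliary subunit genes of glutamate receptors, 20 were tested, 9 were higher and 3 lower in Meis2 > Pax6 cells, with a median log2 difference of 0.44. Cacng3, a TARP that carries AMPA receptors to the membrane, had a log2 difference of 4.35, and Shisa7 of 3.17. Olfm3 (1.93) and Olfm2 (1.86), secreted olfactomedins, followed. Of 36 other postsynaptic density genes, 34 were tested, 18 were higher and 4 lower, with a median of 0.42. Lrrtm3 (2.69), a synaptic adhesion protein, Magi3 (1.82), Lin7a (1.76) and Camk2b (1.65), a kinase subunit of the postsynaptic density, were the 4 largest. Markers of GABAergic neurons, which also use these receptors, summed to 36.9 to 115 CPM in Meis2 > Pax6 and 10.7 to 65.3 CPM in Pax6 > Meis2 cells, with Ptf1a at 0 in the former, and their part in the result was not tested.

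Within the Pax6 > Meis2 cells most genes of the list tested also differed between dividing and non-dividing cells, a comparison added after the data were seen. The genes that passed were not all those that passed between the sets, and Grik2 and Dlgap1 changed sign. Of 25 genes tested, 17 were higher and 1 lower in non-cycling cells, against 26.2% higher and 26.3% lower of all genes, and the median log2 difference was 0.70 against 0.01. Gria2 stood at 1629, 1784, 700.2 and 1261 CPM in non-cycling and 723, 1049, 377 and 595 CPM in cycling cells (log2 difference 0.98, SE 0.07, adjusted p = 6.77e-11). Grik2 stood at 109.8, 104, 62.6 and 92.9 against 45.0, 41.8, 32.9 and 41.3 CPM (log2 difference 1.16, SE 0.07, adjusted p = 7.05e-12). Each library was higher in its non-cycling cells for both genes, although CKO 1 stayed low for Gria2. Grin2b had a log2 difference of 1.71, Grin1 of 1.60, Dlg2 of 1.26, Dlgap1 of 1.19 and Shank1 of 1.16. Grik3 stood at 26.7, 53.5, 40.4 and 34.1 against 15.2, 21.7, 14.8 and 19.9 CPM (log2 difference 1.02 ± 0.11 SE), and Shank2 at 10.4, 9.44, 6.17 and 4.33 against 4.09, 2.99, 2.13 and 2.84 CPM (1.13 ± 0.22 SE). Both passed here and not between the Pax6 and Meis2 sets.

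Grik1, which encodes GluK1, was the gene that was higher in cycling cells. It stood at 1.65, 2.10, 1.92 and 1.41 CPM in non-cycling and 6.36, 8.22, 6.31 and 6.17 CPM in cycling Pax6 > Meis2 cells (log2 difference -1.96, SE 0.24, adjusted p = 5.21e-07). Cycling and non-cycling values did not overlap, and each varied little among libraries. Gria4 (log2 difference -0.08 ± 0.08 SE), Grin2a (-0.07 ± 0.09 SE), Homer1 (-0.07 ± 0.08 SE) and Homer2 (0.05 ± 0.09 SE) did not pass between cycling and non-cycling cells. Among auxiliary genes 11 were higher and 1 lower of 16, led by Olfm2 (1.35), Cacng5 (1.22), Shisa9 (1.02) and Cnih2 (0.86). Among other postsynaptic density genes 19 were higher and 1 lower of 34, led by Frmpd4 (1.65), Lrrtm4 (1.64), Lrrtm2 (1.29) and Nlgn2 (0.85). The calls of Gria1, Grm2 and Grip1 were lost without CKO 1, that of Grm5 without control 1, and that of Grip1 also without control 1 or CKO 2. Cycling cells were deeper, with a median of 5042, 2819, 17463 and 12998 UMIs against 2734, 2109.5, 4415 and 4059, and the part of depth in the result was not tested.

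A minority of the list differed between cells with an Olig2 UMI and the rest, mostly in the lower direction. Of 25 genes tested, 1 was higher and 4 lower, where 2.18% of all genes passed as higher and 1.85% as lower. Gria2 stood at 872, 1001, 333 and 571 CPM in Olig2 cells and 1186, 1206, 490.3 and 929.9 CPM in the other cells (log2 difference -0.49, SE 0.07, adjusted p = 0.000129). Dlgap1 stood at 35.4, 13.1, 13.8 and 23.1 against 53.8, 24.9, 24.3 and 38.4 CPM (log2 difference -0.75, SE 0.13, adjusted p = 0.000684). Both genes were lower in the Olig2 cells of each library. Grik2 stood at 38.1, 49.2, 34.4 and 38.4 against 71.7, 51.3, 38.6 and 65.4 CPM (log2 difference -0.48), Grm5 at 9.08, 14.7, 1.72 and 3.92 against 15.6, 26.7, 4.17 and 7.12 CPM (-0.89) and Homer2 at 47.2, 86.0, 60.6 and 41.9 against 39.7, 60.1, 42.9 and 34.4 CPM (0.40). With intact cells only, none of these 5 calls held in the edgeR test (Gria2 -0.24, adjusted p = 0.121), and 2 genes passed over all cells with DESeq2. Without 1 library at a time the calls of Gria2 and Dlgap1 held, while Grm5 lost its call without any of the 4 libraries, Grik2 without control 1, CKO 1 or CKO 2 and Homer2 without CKO 1. In the edgeR test over all cells, 4 genes were higher and 7 lower at an unadjusted p under 0.05, which 15.1% of all genes reached.

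Gria3 was higher in the Tbr1 or Lmx1a cells, as it was in Meis2 > Pax6 against Pax6 > Meis2 cells. The Tbr1 or Lmx1a and Meis2 > Pax6 sets share 49, 306, 95 and 28 cells, so the trait is not particular to either. With Pax6 > Meis2 cells the Tbr1 or Lmx1a set shares 74, 116, 145 and 109 cells, more than with Meis2 > Pax6 cells except in control 2. Of 24 genes tested, 3 were higher and 1 lower than in the other kept cells, where 3.41% of all genes passed as higher and 1.92% as lower. Gria3 stood at 61.3, 135, 21.0 and 44.3 CPM in Tbr1 or Lmx1a cells and 24.7, 51.6, 16.3 and 19.3 CPM in the others (log2 difference 1.10, SE 0.14, adjusted p = 0.000374). It was higher in each library's Tbr1 or Lmx1a cells, most of all in control 2, and its log2 difference was 0.06 among intact cells. Grik3, which encodes GluK3, stood at 31.7, 57.3, 42.4 and 48.9 against 22.0, 34.9, 23.4 and 26.4 CPM (log2 difference 0.78, SE 0.10, adjusted p = 0.000374), and Grin1 at 22.2, 23.4, 10.4 and 12.2 against 8.66, 17.8, 4.00 and 4.87 CPM (log2 difference 1.05, SE 0.21, adjusted p = 0.0102), a call lost without CKO 1 (adjusted p = 0.139). Grin2a was the lower one, at 20.1, 3.25, 17.8 and 17.6 against 38.5, 11.5, 28.7 and 38.2 CPM (log2 difference -0.95, SE 0.15, adjusted p = 0.00133). Among related genes Frmpd4, a PSD-95 binding protein, differed in opposite directions: its log2 difference was 1.86 in Tbr1 or Lmx1a cells and -1.86 in Olig2 cells. Cacng4 was higher in both sets (0.44 and 0.36). Cnih2 (0.41), Baiap2 (0.49) and Nlgn3 (0.42) were higher in Tbr1 or Lmx1a cells. In Olig2 cells Nptxr (0.73) and Magi3 (0.50) were higher, and Cacng5 (-1.43), Dlg1 (-0.58) and Olfm1 (-0.52) lower. In Tbr1 or Lmx1a cells the microglial markers reached 364 CPM in control 1 (9.07 CPM in control 2) and the erythroid markers 4608 CPM in control 2 (23.8 CPM in control 1), and their part in the result was not tested.

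Between CKO and control cells, 0 receptor or scaffold genes passed an adjusted p under 0.05 in edgeR's quasi-likelihood test, in all kept cells or in any of the 4 sets. Of all genes, 0% passed in all kept cells, 0.0574% in Pax6 > Meis2, 0.212% in Meis2 > Pax6, 0.019% in Olig2 and 0.00981% in Tbr1 or Lmx1a cells. At an unadjusted p under 0.05, 13 of 30 genes were lower and 0 higher over all kept cells, where 11.2% of all genes had such a p. Within Pax6 > Meis2 cells it was 13 of 28 lower and 0 higher (9.82% of all genes), and in Meis2 > Pax6 cells 8 of 27 lower and 1 higher (14.7%). In Olig2 cells it was 8 of 21 lower (7.63%) and in Tbr1 or Lmx1a cells 7 of 20 lower (8.94%), with 0 higher in both. DESeq2 called 4 of 30 genes over all kept cells, 1 of 28 in Pax6 > Meis2 and 1 of 27 in Meis2 > Pax6 cells. It called 0 in the Olig2 and in the Tbr1 or Lmx1a cells. Of all genes it called 151 of 14710 over all kept, 91 of 13931 in Pax6 > Meis2 and 174 of 11804 in Meis2 > Pax6 cells.

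The direction was nonetheless shared by most of the list. The median log2 fold change was -0.79 over all kept cells, -0.63 in Pax6 > Meis2, -0.26 in Meis2 > Pax6, -0.42 in Olig2 and -0.46 in Tbr1 or Lmx1a cells, while the median of all genes lay between -0.01 and 0.01 in each. Over all kept cells both CKO libraries lay below both controls for 19 of 30 genes, where this held for 24.4% of all genes, and above them for 1, where it held for 25.4%. For Pax6 > Meis2 cells the counts were 19 of 28 below (23.5% of all genes) and 1 above (22.9%). In Meis2 > Pax6 cells the counts were 11 of 27 below (22.6% of all genes) and 3 above (22%). In Olig2 cells they were 10 of 21 below (20.2%) and 1 above (20.7%), and in Tbr1 or Lmx1a cells 11 of 20 below (20.8%) and 0 above (21.9%). These sets share libraries and cells, so they are not independent of each other.

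**Figure D4:**
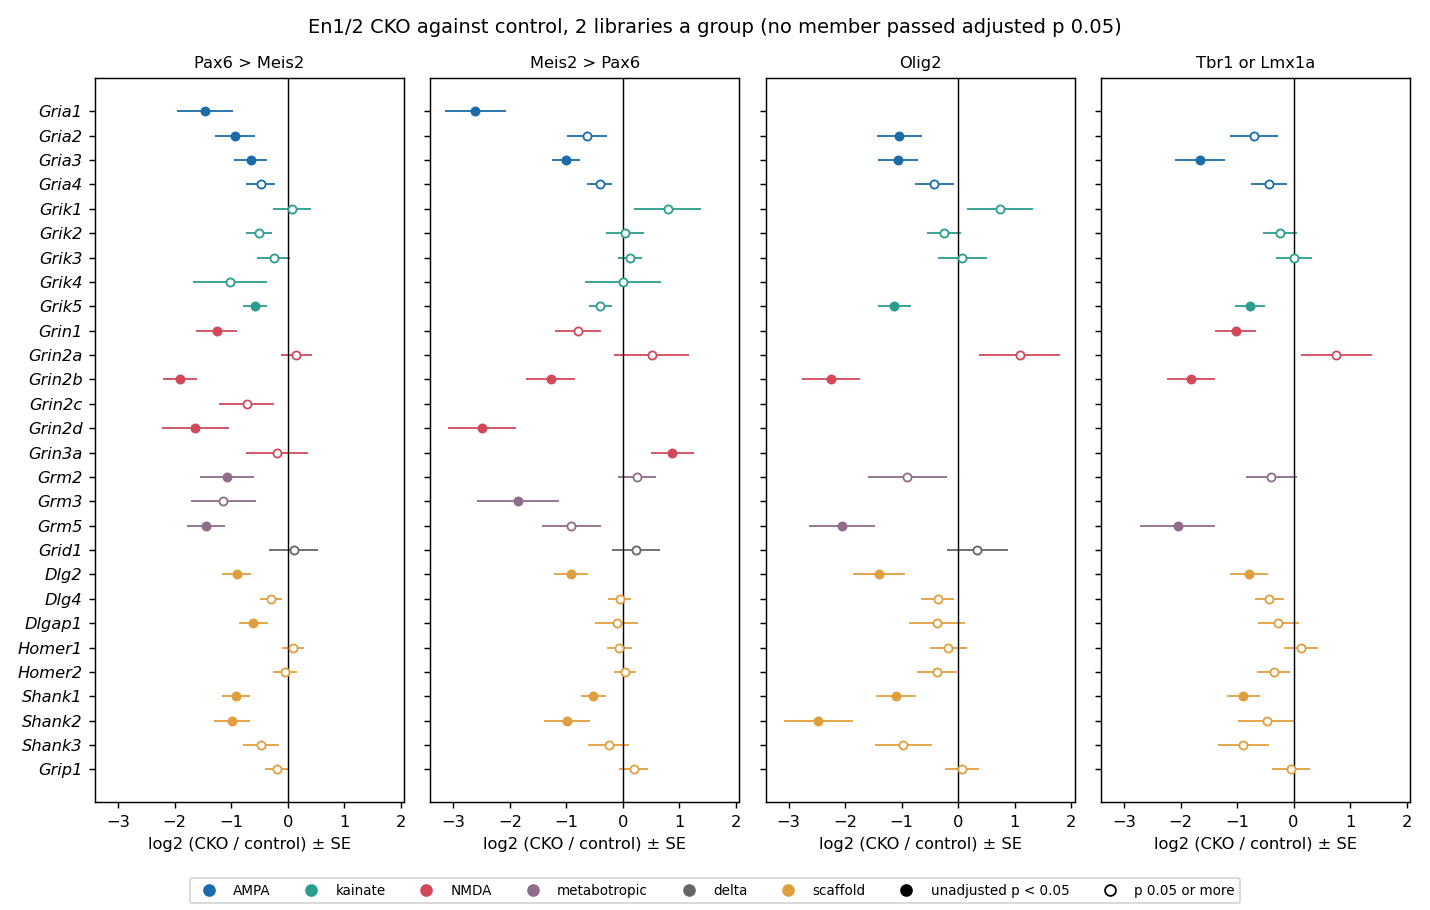
Log2 fold change (± SE) of En1/2 CKO against control for each gene tested in the 4 sets, filled where the unadjusted p was under 0.05. No gene passed after adjustment, most points lie left of 0, and Grin2b lies between -2.25 and -1.28 in all 4 sets.

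Depth and Malat1 moved with genotype in the same cells, except in Meis2 > Pax6 cells. Cycling and some marker levels did so in each set. In Pax6 > Meis2 cells the median UMIs per cell were 3238, 2339, 13722.5 and 9818.5, Malat1 took 3.65, 6.63, 1.38 and 2.75% of a cell's UMIs, and cycling cells made up 35.9, 32.2, 53.6 and 42.5%. The GABAergic list, with 9 of 9 markers detected, summed to 42.0 to 65.3 CPM in control and 10.7 to 20.8 CPM in CKO libraries, and the nuclei list to 182 to 499 and 119.6 to 198 CPM, which overlapped. In Meis2 > Pax6 cells the granule list summed to 1999 to 2150 CPM in control and 2924 to 3211 CPM in CKO libraries, with 10 of 10 markers detected, and the unipolar brush cell list, with 5 of 5 detected, to 95.6 to 160.0 and 48.3 to 77.6 CPM. Cycling cells made up 13.8, 9.91, 15.5 and 15.6% there. The groups overlapped there in median UMIs (2617, 2171.5, 3110 and 2248) and in Malat1 (6.37, 8.83, 3.58 and 7.94%). They also overlapped in the nuclei list (2426 to 3064 CPM in control and 2319 to 2628 CPM in CKO libraries). The same held for the GABAergic list (70.5 to 115 and 36.9 to 74.7 CPM). In Olig2 cells the median UMIs were 4233.5, 2605.5, 13268 and 14646, and cycling cells made up 27.7, 11.2, 45.7 and 55.9%. The GABAergic list there, with 8 of 9 markers detected and Ptf1a at 0, summed to 35.0 to 66.1 CPM in control and 8.0 to 12.6 CPM in CKO libraries. In Tbr1 or Lmx1a cells the median UMIs were 3085, 2547, 5639.5 and 5264, and cycling cells made up 25.7, 14.7, 36.4 and 31.8%. The GABAergic list there, again with Ptf1a at 0, summed to 54.4 to 59.5 and 15.9 to 35.2 CPM, the granule list to 2619 to 3149 and 3374 to 3759 CPM, and the unipolar brush cell list to 347 to 690.0 and 267 to 269 CPM. The median log2 fold change of the list in Pax6 > Meis2 cells was -0.61 with cycling cells left out and -0.38 with each cell thinned to 2000 UMIs. It was -0.40 among cells with at least 1% Malat1 and -0.26 among intact cells. The thinned, Malat1 and intact medians covered 22, 26 and 24 genes, against 28 in the main fit. A change in the median therefore mixes a change in genes with a change in values. The part of the marker levels in the results was not tested.

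Grin2b came closest to the threshold in Pax6 > Meis2 cells. It stood at 21.4, 36.6, 6.05 and 8.86 CPM there, 120.5, 77.0, 20.7 and 64.5 CPM in Meis2 > Pax6, 21.0, 61.5, 8.55 and 8.75 CPM in Olig2 and 50.5, 56.9, 9.13 and 24.0 CPM in Tbr1 or Lmx1a cells. Both CKO libraries lay below both controls in each set. The Olig2 and the Tbr1 or Lmx1a cells mix Meis2 > Pax6 and Pax6 > Meis2 cells in proportions that differ among libraries. The part of this mix in the Grin2b values was not tested. The log2 fold changes were -1.91 ± 0.31, -1.28 ± 0.43, -2.25 ± 0.51 and -1.82 ± 0.43 (SE), with edgeR adjusted p of 0.0905, 0.219, 0.447 and 0.371. For Pax6 > Meis2 cells DESeq2 gave an adjusted p of 0.000117. There the log2 fold change of Grin2b was -1.55 with cycling cells left out, -1.30 in thinned and -1.37 in intact cells. It passed in edgeR without control 1 (adjusted p = 0.0389) and without CKO 2 (adjusted p = 0.00203), and not without control 2 or CKO 1.

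Gria1 came closest in Meis2 > Pax6 cells, at 60.7, 19.1, 5.17 and 7.85 CPM (log2 fold change -2.61, SE 0.54, edgeR adjusted p = 0.0975). Control 1 was far above the other libraries, and without it the log2 fold change was -1.60, more than 1.5 times smaller, while its adjusted p was 0.0275. DESeq2 gave an adjusted p of 0.000672 over all 4 libraries, edgeR 0.0487 among intact cells and 0.0418 where the marker margin was at least 2 UMIs. Among Pax6 > Meis2 cells Gria1 rested on 32, 7, 17 and 20 UMIs. In Olig2 cells it had 6, 21, 1 and 0 UMIs and in Tbr1 or Lmx1a cells 5, 19, 3 and 0, and it was not tested there.

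Other AMPA and kainate genes varied by set. Gria2 stood at 1121, 1455, 478 and 875 CPM in Pax6 > Meis2 cells (log2 fold change -0.93 ± 0.35 SE) and 1363, 1095, 480.4 and 1101 CPM in Meis2 > Pax6 cells (-0.64 ± 0.35 SE). CKO 1 had the lowest Gria2 level in both sets, and CKO 2 lay between the controls in Meis2 > Pax6 cells. Gria3 had log2 fold changes of -0.66, -1.01, -1.07 and -1.66 in the 4 sets in the order above, and Gria4 of -0.48, -0.41, -0.42 and -0.44. Among kainate genes Grik5 ranged from -1.13 in Olig2 to -0.40 in Meis2 > Pax6 cells. Grik2 had -0.51 in Pax6 > Meis2 and 0.04 in Meis2 > Pax6 cells, Grik3 stayed between -0.25 and 0.13, and Grik4, tested in 2 of the sets, had -1.02 in Pax6 > Meis2 cells with an SE of 0.65.

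NMDA subunits differed in sign. Grin2d, the GluN2D gene, had log2 fold changes of -1.64 ± 0.59 (SE) in Pax6 > Meis2 and -2.49 ± 0.60 in Meis2 > Pax6 cells, at levels of at most 7.29 CPM in any library. Grin1 had -1.26 and -0.79 in the same order. Grin2a did not share this direction, with 0.15 ± 0.27 and 0.51 ± 0.67 (SE), and Grin2c had -0.73 ± 0.49 (SE) in Pax6 > Meis2 cells. Grin3a was the gene with an unadjusted p under 0.05 in the higher direction, at 13.6, 13.8, 16.5 and 36.5 CPM in Meis2 > Pax6 cells (log2 fold change 0.88, edgeR adjusted p = 0.32). Its control values were alike and CKO 2 stood well above the rest, and without CKO 2 the log2 fold change was 0.28.

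The GluN2 composition followed these differences. The Grin2b share of GluN2 UMIs was 45.4% ± 18.0 in control and 16.4% ± 2.22 in CKO libraries (SD, n = 2 each) in Pax6 > Meis2 cells. In Meis2 > Pax6 cells it was 85.6% ± 3.77 in control and 72.7% ± 4.11 in CKO libraries (SD, n = 2 each). In Olig2 cells it was 67.3% ± 31.3 in control and 23.9% ± 7.82 in CKO libraries (SD, n = 2 each), and in Tbr1 or Lmx1a cells 78.1% ± 14.1 in control and 44.5% ± 16.8 in CKO libraries (SD, n = 2 each). Both CKO libraries lay below both controls in all 4 sets, with wide spread between the 2 controls outside Meis2 > Pax6 cells. The part of the mix of Meis2 > Pax6 and Pax6 > Meis2 cells within the Olig2 and the Tbr1 or Lmx1a cells was not tested. With a marker margin of 2 UMIs the groups overlapped in Olig2 cells, at 62.5% ± 41.2 and 22.5% ± 15.3 (SD, n = 2 each), and in Tbr1 or Lmx1a cells, at 90.2% ± 3.79 and 87.1% ± 5.35 (SD, n = 2 each). In Tbr1 or Lmx1a cells the difference was then -3.06 percentage points, against -33.6. An exact permutation test of 2 against 2 libraries cannot go below p = 0.33, and 28 shares were tested (adjusted p = 0.583 for each share whose groups did not overlap). The Dlg4 share of Dlg2 and Dlg4 UMIs was 84.6% ± 1.18 in control and 89.4% ± 0.229 in CKO libraries (SD, n = 2 each) in Pax6 > Meis2 cells and 82.5% ± 1.14 in control and 89.4% ± 2.42 in CKO libraries (SD, n = 2 each) in Meis2 > Pax6 cells. The Gria2 share of AMPA UMIs was 94.3% ± 0.687 in control and 92.5% ± 1.60 in CKO libraries (SD, n = 2 each) in Pax6 > Meis2 cells. In Meis2 > Pax6 cells it was 81.2% ± 0.184 in control and 80.5% ± 6.31 in CKO libraries (SD, n = 2 each), where the groups overlapped.

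Metabotropic genes and scaffolds completed the picture. Grm5 had log2 fold changes of -1.44 in Pax6 > Meis2, -0.92 in Meis2 > Pax6, -2.05 in Olig2 and -2.05 in Tbr1 or Lmx1a cells. Grm3 had -1.14 and -1.86 in the first 2 sets, and Grm2 -1.08 and 0.24. Of the scaffold genes, Dlg2 lay between -1.41 and -0.79, Shank1 between -1.10 and -0.53 and Shank2 between -2.47 and -0.48 over the 4 sets. Shank3 lay between -0.97 and -0.26. Homer1 stayed close to level, with 0.10 ± 0.20 in Pax6 > Meis2 and -0.06 ± 0.22 (SE) in Meis2 > Pax6 cells, as did Homer2 with -0.05 ± 0.21 and 0.03 ± 0.19. In those sets the values were -0.29 and -0.06 for Dlg4, -0.19 and 0.19 for Grip1 and 0.11 and 0.23 for Grid1. Dlgap1 had -0.61 in Pax6 > Meis2 cells, near the median of the list there, and -0.11 in Meis2 > Pax6 cells. The auxiliary list had a median of -0.43 in Pax6 > Meis2 and -0.34 in Meis2 > Pax6 cells, and the other postsynaptic density list -0.32 and -0.23, with 0 genes passing in edgeR in either.

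Whether the CKO difference itself depended on the set was tested with an interaction term in 1 fit of both disjoint sets. Of 30 genes tested 0 passed in edgeR, where 0.114% of all genes did, and at an unadjusted p under 0.05 there were 2 with a higher and 1 with a lower term (5.64% of all genes in either direction). DESeq2 also called 0, while the edgeR count changed without control 1. Grik2 had an interaction term of 0.54 ± 0.22 (SE, log2), Grm2 of 1.33 ± 0.54 and Gria1 of -1.41 ± 0.58. The term of Grin2b was 0.57 ± 0.41, so a difference between the sets in its CKO value was not detectable. The auxiliary gene Nptxr did pass, and its values are given in the closing section.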

How the data were processed

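Single-cell libraries of sorted tdT+ cells from E14.5 cerebellum, 2 control and 2 En1/2 CKO, were made with 10x Genomics 3′ chemistry (v3.1). Each deposited matrix holds raw UMI counts, not normalized, of 1 library, and the authors made it with Cell Ranger 5.0.0, per the submitters' processing notes, which also list mm10. Depth per library is given in the text. A count of 0 was read against a floor of 3 UMIs, and intervals are 95% Wilson intervals for counting error only.

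Marker sets, members and lists were chosen with earlier results of these data known. UMIs were summed per library and set and tested with edgeR 4.0.16 (limma 3.58.1, R 4.3.3): quasi-likelihood F test, TMM factors, filterByExpr, two-sided, Benjamini-Hochberg adjustment over all genes tested, threshold 0.05. Comparisons between sets had the library as a block, and each library entered once per set. The script was tested on simulated data. Doublets were kept, since the member rule keeps all cells past the 3 cell filters, and were left out in an alternative (the 0.8% per 1000 cells with the highest simulated-doublet score). Other alternatives were DESeq2 1.42.0, no count filter, no TMM factors, intact cells, thinning, cycling cells left out, a marker margin of 2 UMIs, each library left out, and the replicate number as a block. Cells with at least 1% Malat1, crossed replicate numbers and the comparison of cycling with non-cycling cells were added after seeing the data. Shares within families were compared with exact permutation tests, two-sided. Coordinates are from GENCODE M21 (GRCm38) by gene ID. Exons of 11 of the 33 members overlap another gene, 1 of them on the same strand.

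All members are named. A member is given in every library where it passed in any comparison or was the highest of its family. From each of the other lists, up to 4 genes that passed with the largest absolute log2 fold change are named.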

Additional observations from a re-analysis of the deposited data

Results flagged for a closer look

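Nptxr, the gene of the neuronal pentraxin receptor, which helps gather AMPA receptors at synapses, differed between the sets in its CKO effect. Its interaction term (Meis2 > Pax6 minus Pax6 > Meis2 cells) was 1.46 on the log2 scale, and it passed in edgeR's quasi-likelihood test (adjusted p = 0.0219). In Pax6 > Meis2 cells Nptxr stood at 38.3, 47.8, 22.0 and 30.9 CPM in the order control 1, control 2, CKO 1 and CKO 2 (log2 fold change -0.68, adjusted p = 0.433). In Meis2 > Pax6 cells it stood at 96.7, 77.9, 141 and 152 CPM (log2 fold change 0.75, adjusted p = 0.164). Both CKO libraries lay below both controls in the first set and above them in the second, and neither difference passed on its own. With cells of at least 1% Malat1 only, 0 auxiliary genes passed the interaction test, and in the other alternatives 1 did, or 2 without control 1.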

How the results depend on the processing

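Between Meis2 > Pax6 and Pax6 > Meis2 cells 14 to 24 genes of the list passed over all alternatives run, against 19, and between non-cycling and cycling Pax6 > Meis2 cells 15 to 19, against 18. The counts of CKO calls did change. Against 0 in the edgeR test, DESeq2 called 4 genes over all kept cells and 1 each in Pax6 > Meis2 and Meis2 > Pax6 cells. Of all genes it called 151 of 14710, 91 of 13931 and 174 of 11804 in the same order. Without a count filter 9, 4, 6 and 4 of 32 genes passed over all kept, Pax6 > Meis2, Meis2 > Pax6 and Tbr1 or Lmx1a cells. Of all genes, 768 of 22358, 348 of 21414, 559 of 19508 and 256 of 17841 passed in the same order. Intact cells gave 1 call in Meis2 > Pax6 cells, and a marker margin of 2 UMIs 1 there and 1 in Tbr1 or Lmx1a cells. Of all genes, 42 of 9072, 72 of 11531 and 19 of 6226 passed in the same order. Leaving out each library in turn gave 0 to 11 calls over all kept, 0 to 1 in Pax6 > Meis2, 0 to 7 in Meis2 > Pax6, 0 to 12 in Olig2 and 0 to 4 in Tbr1 or Lmx1a cells, and 0 to 4 interaction calls. The highest counts came without CKO 2 in Meis2 > Pax6 cells, and without either CKO 2 or control 1 in Pax6 > Meis2 cells. For the other sets and the interaction they came without control 1. In these fits more of all genes passed as well, not only genes of the list. A lone library in a group is assumed to vary like the other group. In Olig2 cells against the rest 5 genes passed in the main test. It was 2 with DESeq2, 0 among intact cells, 3 with the marker margin, 2 after thinning and 2 to 5 with a library left out. Of all genes, 288 of 12505 passed with DESeq2, 388 of 10705 among intact cells, 498 of 12242 with the margin and 233 of 10562 after thinning. In Tbr1 or Lmx1a cells 2 genes passed among intact cells, against 4, and only 1 of them was among those 4. There 308 of 10690 of all genes passed.

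The median log2 fold change of CKO against control kept its sign in all these settings. Each median covers only the listed genes tested in that setting, so the genes behind it change too. Among intact cells these were 28 of 30 over all kept and 24 of 28 in Pax6 > Meis2 cells. In Meis2 > Pax6 cells they were 19 of 27 and in Tbr1 or Lmx1a cells 15 of 20. The median was -0.53 among intact cells over all kept cells. In Pax6 > Meis2 cells it was -0.26 among intact, -0.38 in thinned and -0.40 among cells with at least 1% Malat1, and -0.91 (without CKO 2) to -0.47 (without control 2) with a library left out. In Meis2 > Pax6 cells it was -0.56 among intact cells and -0.59 (without CKO 2) to -0.041 (without CKO 1). In Olig2 cells it was -0.90 without doublet-scored cells, -0.85 with the Malat1 limit and -0.82 (without control 1) to -0.11 (without control 2). In Tbr1 or Lmx1a cells it was -0.30 among intact cells, -0.71 without doublet-scored cells, -0.70 with the marker margin and -0.73 (without control 1) to -0.46 (without control 2).

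Replicate numbers did not pair the libraries: same-numbered libraries had correlations of their deviations of -0.25, -0.16, -0.21, -0.31 and -0.10 (all kept, Pax6 > Meis2, Meis2 > Pax6, Olig2, Tbr1 or Lmx1a cells). With the replicate number as a block 1 gene passed in Meis2 > Pax6 cells, where 58 of 11804 of all genes did, and 0 elsewhere. With crossed numbers, added after seeing the data, 10, 2, 7, 7 and 1 genes passed. Of all genes, 885 of 14710, 207 of 13931, 763 of 11804, 449 of 10524 and 58 of 10196 passed in the same order.

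A few signs reversed, and the cause was not tested. Grik3 between the 2 main sets was -0.061 with cycling cells left out, Grin2b in Olig2 cells against the rest 0.52 and the Grik2 interaction term -0.12 among intact cells. Shares within families (CKO minus control, percentage points) reversed among intact cells for Homer1 in Pax6 > Meis2 (-0.89), Gria2 in Meis2 > Pax6 (0.89) and, in Tbr1 or Lmx1a cells, Gria2 (-0.98), Dlg4 (-1.30) and Homer1 (-1.73). With the marker margin they reversed for Gria1 in Pax6 > Meis2 (0.0095), Homer1 in Meis2 > Pax6 (0.37), Grik2 (-0.93) and Homer1 (-7.47) in Olig2, and Grm5 (16.7), Dlg4 (-0.58) and Homer1 (-0.94) in Tbr1 or Lmx1a cells. Depth limits the rare genes: Grik4, Grin2c, Grin2d and Grm3 were tested only in some sets.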
